A study of Homo sapiens with 20 samples.

Results

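Zinc finger genes encoded outside chromosome 19 were examined for the RNA contacts of 3 splicing regulators in TREX FLP-In 293T cells, a line derived from human embryonic kidney. A gene belonged to the set when its symbol was ZNF followed by a number, with or without 1 letter, when its peaks lay on an autosome other than chromosome 19, and when at least 1 library listed a peak in it. The rule used no read number and found 217 of the 19362 genes with a deposited peak. Of the 217, 8 had no peak of at least 6 reads, the minimum used below, in any library. GENCODE lists 207 of the 217 as protein coding and the other 10 as pseudogenes. Chromosome 7 held 31 members, chromosome 16 held 27 and chromosome 3 held 18. The contacts were mapped by iCLIP, in which ultraviolet light fixes a protein to the RNA it touches and the RNA that comes down with the protein is sequenced.

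Cells with an inducible T7-tagged hnRNPA1 are called T7-hnRNPA1 cells, and the control cells had no transgene named in their labels. Both were kept under tetracycline for 24 h before harvest and under drug selection for 3 days before use, with blasticidin for all cells and zeocin or, for the inducible line, hygromycin. The second drug therefore differed with the transgene. Precipitation started from nuclear extracts. U2AF2 and SRSF1 had 3 libraries from T7-hnRNPA1 cells and 3 from control cells each, and hnRNPA1 had 2 and 2. The labels do not say that replicates came from separate cultures, so the p-values below measure the spread between these libraries, which may be technical. No file used here gives RNA levels, so a change in the amount of an RNA and a change in its contact with a protein cannot be told apart.

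U2AF2 is the large subunit of the factor that recognises the polypyrimidine tract ahead of a 3' splice site. hnRNPA1 is an abundant nuclear RNA-binding protein that can repress splice sites, while SRSF1, of the SR protein family, binds exonic enhancers and promotes exon use. C2H2 zinc finger genes form the largest family of transcription factors in the human genome. Many carry a KRAB domain, which recruits the corepressor TRIM28 and the histone methyltransferase SETDB1 to silence transposable elements, and most arose by tandem duplication, so that neighbours resemble each other in sequence. Reads from such paralogs may be split between near-identical copies by the authors' mapping. The question set by the series title is whether hnRNPA1 alters where U2AF2 meets RNA.

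The values are reads in called peaks of at least 6 reads, summed per gene. Depth differed between the conditions. U2AF2 libraries held 2317615 to 3291468 reads in peaks in T7-hnRNPA1 cells and 702563 to 1158060 in control cells. The difference ran the other way for hnRNPA1, with 549365 and 575471 reads in T7-hnRNPA1 cells against 2973275 and 2508821 in control cells. SRSF1 libraries were shallow, at 175293 to 329448 reads in T7-hnRNPA1 cells and 125082 to 173766 in control cells. Reads were therefore divided by a size factor per library, and genes were tested only where every library of the protein had a peak. A gene is said to have risen or fallen where limma's adjusted p was under 0.05 over all genes tested.

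A larger share of U2AF2 reads lay in zinc finger genes in T7-hnRNPA1 cells, on chromosome 19 as well as on the other autosomes. Zinc finger genes on chromosome 19 held 1.52%, 1.47% and 1.83% of reads in peaks in T7-hnRNPA1 cells. In control cells they held 0.495%, 0.481% and 0.525%. The share of the members was 1.31%, 1.31% and 1.26% in T7-hnRNPA1 cells, against 0.836%, 0.813% and 0.900% in control cells, and the groups did not overlap. The share of peaks moved less, at 1.12%, 1.13% and 1.12% in T7-hnRNPA1 cells and 0.995%, 0.974% and 0.997% in control cells. One gene weighed on the control value, since ZNF207 alone took 38.0%, 37.5% and 33.6% of the zinc finger reads there, against 3.48%, 4.17% and 3.35% in T7-hnRNPA1 cells. Without ZNF207 the zinc finger share was 1.27%, 1.26% and 1.22% in T7-hnRNPA1 cells and 0.518%, 0.508% and 0.598% in control cells. ZNF207 was picked from these same reads, so leaving it out had to lower the control share more. The wider gap is therefore a description only. For hnRNPA1 the share was 0.943% and 0.915% in T7-hnRNPA1 cells, against 1.02% and 1.09% in control cells. SRSF1 gave 0.497%, 0.514% and 0.503% in T7-hnRNPA1 cells and 0.653%, 0.377% and 0.654% in control cells, so its groups overlapped. With peaks held to a minimum raised in proportion to depth, the SRSF1 share was 0.354%, 0.302% and 0.277% in T7-hnRNPA1 cells and 0.507%, 0.377% and 0.531% in control cells, and the groups did not overlap.

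More zinc finger genes had a peak in whichever condition was deeper, for U2AF2 and hnRNPA1. U2AF2 peaks were found in 168, 164 and 175 members in T7-hnRNPA1 cells and in 112, 110 and 135 in control cells. As a share of all genes with a peak, members made up 1.28%, 1.27% and 1.22% in T7-hnRNPA1 cells and 1.24%, 1.18% and 1.25% in control cells, which overlap. When the peak minimum was raised in proportion to depth, the counts were 95, 97 and 92 in T7-hnRNPA1 cells and 112, 92 and 97 in control cells, and the groups overlapped. hnRNPA1 peaks were found in 97 and 111 members in T7-hnRNPA1 cells against 183 and 175 in control cells, and with the depth-matched minimum in 97 and 90 against 71 and 76, the opposite order. SRSF1 counts were 55, 78 and 68 in T7-hnRNPA1 cells and 70, 38 and 51 in control cells, and with the depth-matched minimum 28, 20 and 22 against 34, 38 and 27.

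**Figure D1:**
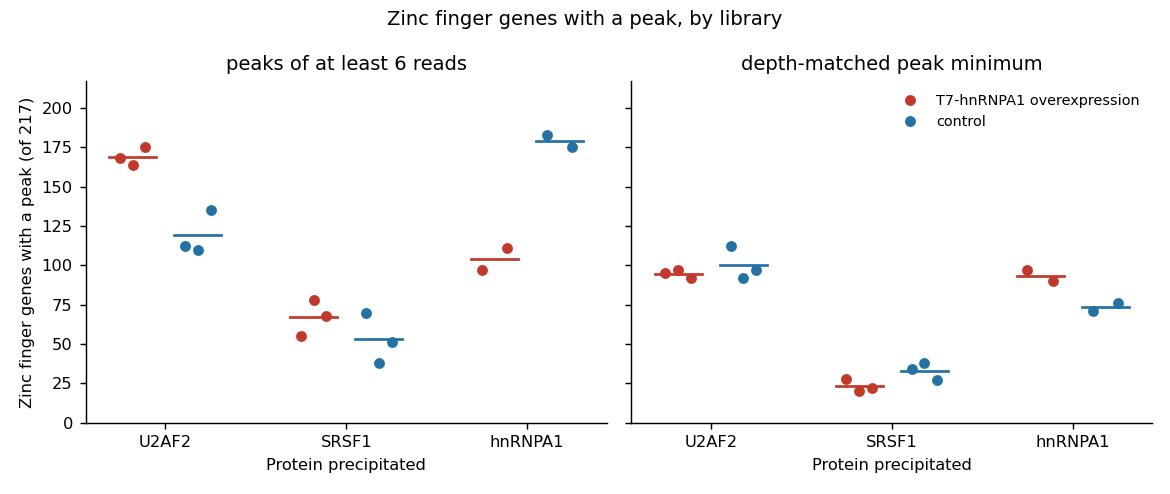
Number of the 217 zinc finger genes with a peak (vertical axis) in each library (points) for U2AF2, SRSF1 and hnRNPA1, with T7-hnRNPA1 cells to the left of control cells and a bar at the mean. With peaks of at least 6 reads (left panel) U2AF2 shows 164 to 175 members in T7-hnRNPA1 cells against 110 to 135 in control cells; with a minimum matched to depth (right panel) it shows 92 to 97 against 92 to 112.

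In U2AF2, 78 members had a peak in all 6 libraries and were tested. Of these, 32 rose and 18 fell with T7-hnRNPA1, and 28 did not pass the test. Over all 6795 genes tested, 30.2% rose and 31.6% fell, 61.8% in either direction. Among the members 41.0% rose and 23.1% fell. The median log2 change was 0.49 over the 78 members and 0.02 over all genes tested. A call on a single member is therefore common background. Total-reads scaling, which moved the median of all genes to 0.80, gave 47 members higher and 11 lower, against 48.0% and 19.7% of all genes. With peaks held to the depth-matched minimum 53 members could be tested, of which 20 rose and 13 fell, with a median of 0.63. With the number of peaks in place of reads, 11 of the 78 were higher and 12 lower. The shares of all genes called with the depth-matched minimum and with numbers of peaks are not given here. Those counts therefore describe the members only.

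The largest rises among members with separate groups were in ZNF483, ZNF620, ZNF707, ZNF394, ZNF695, ZNF341, ZNF713 and ZNF517, at 1.97 to 2.73 on the log2 scale. Apart from ZNF341, a transcription factor needed for STAT3 expression, these encode proteins with a KRAB domain, and ZNF483 and ZNF394 also carry a SCAN domain. ZNF483 (chr9:114290310-114340125, hg19, the span of its peaks) had 329, 321 and 340 normalised reads in T7-hnRNPA1 cells, against 26.0, 47.5 and 93.2 in control cells. The control values rest on 9, 18 and 55 reads before normalisation. Its log2 change was 2.73 ± 0.42 (SE, n = 3 per group, limma, adjusted p = 0.0010), and the lowest T7-hnRNPA1 library lay well above the highest control library.

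ZNF394 (chr7:99090794-99094423) had 397, 455 and 381 normalised reads in T7-hnRNPA1 cells and 69.3, 92.4 and 98.3 in control cells. The change was 2.24 ± 0.19 (limma, adjusted p = 6.9e-05). ZNF707 had 468, 470 and 439 normalised reads in T7-hnRNPA1 cells, against 115, 124 and 54.2 in control cells, a log2 change of 2.31 ± 0.31 (adjusted p = 0.00059). Libraries of each condition were close to one another in both genes, with no overlap between conditions. ZNF620 (chr3:40548035-40560219) averaged 191 ± 11.9 in T7-hnRNPA1 cells and 35.1 ± 20.7 in control cells (SD, n = 3 each). ZNF713 (chr7:55958105-56008433) averaged 200.4 ± 19.8 in T7-hnRNPA1 cells and 48.5 ± 10.6 in control cells. ZNF341 (chr20:32323909-32376245) averaged 158 ± 6.65 and ZNF695 (chr1:247131263-247162652) 86.6 ± 8.24 in T7-hnRNPA1 cells, against 36.8 ± 4.37 and 18.9 ± 8.89 in control cells. ZNF517 was the lowest of the 8 in T7-hnRNPA1 cells, at 80.1 ± 8.11 there and 19.9 ± 3.95 in control cells.

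The largest falls were in ZNF736, ZNF207, ZNF326, ZNF385B, ZNF800, ZNF354B, ZNF703 and ZNF343, at -3.81 to -2.01 on the log2 scale. This group mixes KRAB genes (ZNF736, ZNF354B, ZNF343) with zinc finger proteins of other kinds. ZNF207 encodes BuGZ, which binds BUB3 and takes part in kinetochore attachment. It lies at chr17:30677190-30714641 and had 520, 639 and 507 normalised reads in T7-hnRNPA1 cells, against 6445, 6314 and 5932 in control cells. The log2 change was -3.49 ± 0.13 (limma, adjusted p = 2.8e-06), and each control library was higher than every T7-hnRNPA1 library by a wide margin.

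ZNF326, part of the DBIRD complex that links RNA polymerase II elongation to exon inclusion, had 26.6, 17.6 and 23.3 normalised reads in T7-hnRNPA1 cells and 167, 320 and 225 in control cells (log2 change -3.31 ± 0.31, adjusted p = 0.00011). ZNF703 encodes a transcriptional cofactor that is amplified in some breast cancers. It had 57.0, 89.2 and 63.3 normalised reads in T7-hnRNPA1 cells, against 352, 362 and 353 in control cells (log2 change -2.36 ± 0.21, adjusted p = 8.1e-05). The control libraries of ZNF703 were close to one another, and the groups did not overlap in either gene. ZNF385B averaged 58.2 ± 8.60 in T7-hnRNPA1 cells and 525 ± 116 in control cells (SD, n = 3 each). ZNF800 averaged 52.4 ± 19.8 in T7-hnRNPA1 cells and 382 ± 35.9 in control cells. The lowest values were those of ZNF736, with 8.02, 3.53 and 4.0 in T7-hnRNPA1 cells against 150, 60.7 and 59.3 in control cells, resting on 19, 7 and 11 reads in T7-hnRNPA1 cells before normalisation.

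**Figure D2:**
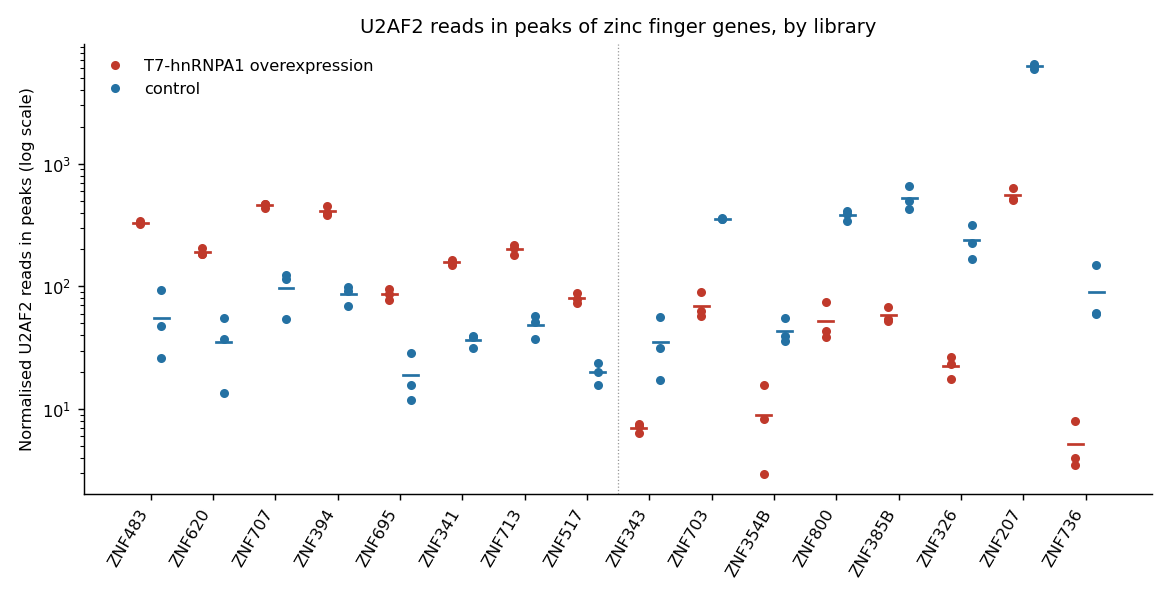
Normalised U2AF2 reads in peaks (vertical log axis) in each of 6 libraries (points) for the 8 zinc finger genes with the largest rises (left of the dotted line) and the 8 with the largest falls (right), T7-hnRNPA1 cells to the left of control cells in each gene and bars at the means. The groups do not overlap in any of the 16 genes, and ZNF207 in control cells stands highest at 5932 to 6445.

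Among the members with most U2AF2 reads, 3 others passed the test upwards and 1 downwards. ZNF337 (chr20:25657789-25676499), a KRAB gene, had 1076, 1103 and 880 normalised reads in T7-hnRNPA1 cells and 300.2, 354 and 324 in control cells (log2 change 1.64 ± 0.14, limma, adjusted p = 7.7e-05). ZNF445 (chr3:44481630-44518047), a KRAB protein that maintains genomic imprints, had 679, 693 and 626 in T7-hnRNPA1 cells and 225, 243 and 231 in control cells (1.51 ± 0.13, adjusted p = 6.2e-05). ZNF106 (chr15:42705231-42777566), an RNA-binding zinc finger protein, had 535, 534 and 524 in T7-hnRNPA1 cells and 193, 182 and 205 in control cells (1.45 ± 0.13, adjusted p = 8.7e-05). In these 3 genes the lowest T7-hnRNPA1 library was more than double the highest control library. ZNF638 (chr2:71505674-71662144), a nuclear protein known for silencing unintegrated retroviral DNA, had 508, 462 and 570 in T7-hnRNPA1 cells and 1025, 924 and 1180 in control cells (-1.02 ± 0.15, adjusted p = 0.00079). That fall depended on scaling: ZNF638 stood at -0.23 with total reads and 0.07 with quantile normalisation, neither called, and at -2.52 with the depth-matched minimum. Its number of peaks ran the other way, with 78, 61 and 106 peaks in T7-hnRNPA1 cells and 10, 13 and 22 in control cells.

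Per kilobase of gene, the order of members changed with condition. In T7-hnRNPA1 cells ZNF337 led with 45.1 normalised U2AF2 reads per kb, followed by ZNF669 with 39.4, ZNF662 with 32.4 and ZNF394 with 29.8. In control cells those 4 had 14.4, 11.6, 9.07 and 6.28 reads per kb. ZNF207 led in control cells, at 17.5 reads per kb in T7-hnRNPA1 cells and 196 in control cells. ZNF703 came next there, at 16.4 reads per kb in T7-hnRNPA1 cells and 83.2 in control cells. The 5 members with most reads held 21.7% of zinc finger reads in T7-hnRNPA1 cells and 49.7% in control cells. Most of the control value was ZNF207, which alone took 33.6% to 38.0% of zinc finger reads in the control libraries. Whether reads were less concentrated apart from ZNF207 was not tested.

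Not every member could be tested. Of the 217, 23 had no U2AF2 peak of at least 6 reads in any library, 95 had peaks in some libraries, and 21 had peaks in all 3 T7-hnRNPA1 libraries and in no control library. No member showed the reverse. The 21 are 9.68% of the members, beside 7.96% of all 19362 genes with that pattern. In the 21, the deeper libraries are those with the peaks, and a gene below the peak minimum is simply not listed, so no fold is given. ZNF33A (chr10:38301153-38347705) was the highest of them, with 100.5, 84.2 and 112 normalised reads in T7-hnRNPA1 cells and no peak in control cells. ZNF33A has a near-identical paralog, ZNF33B, which rose by 1.93 ± 0.46 (limma, adjusted p = 0.011), and reads may be shared between them. ZNF391 had 29.6, 25.7 and 33.1 in T7-hnRNPA1 cells, and ZNF212, ZNF142 and ZNF75A averaged 25.0, 21.9 and 18.6, each with no listed peak in control cells.

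Peaks that overlapped on the same strand were merged over all libraries into 4515 sites in zinc finger genes, of which 2691 (59.6%) were found in 1 library only. Over all genes 60.3% of 414055 sites were in 1 library only. The strongest site of a gene was the one with the highest mean of normalised reads over the 6 U2AF2 libraries. It was picked from the reads that also decide the call, so its shares are a description. In the 32 members that rose, it held a median of 57.4% of U2AF2 reads in T7-hnRNPA1 cells and 62.8% in control cells. In the 18 that fell, the strongest site held a median of 0% in T7-hnRNPA1 cells and 31.2% in control cells, and in 11 of the 18 it had no listed peak in T7-hnRNPA1 cells. The same was seen over all genes tested, where risen genes had medians of 60.3% in T7-hnRNPA1 cells and 58.8% in control cells, and 50.2% of fallen genes had no listed peak at the site in T7-hnRNPA1 cells. The members' medians were thus near those of all genes.

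In ZNF337, an interval of 81 nt at chr20:25658167-25658247, on the minus strand, held 1062, 1078 and 861 normalised U2AF2 reads in T7-hnRNPA1 cells and 277, 277 and 220 in control cells. That was 98.1% of the gene's U2AF2 reads in T7-hnRNPA1 cells and 79.2% in control cells. In ZNF445 an interval of 86 nt at chr3:44482406-44482491 held 66.9% in T7-hnRNPA1 cells and 48.0% in control cells. The reads of ZNF207 lay in 97 sites, of which the strongest, at chr17:30705241-30705844, averaged 2.35 ± 4.07 normalised reads in T7-hnRNPA1 cells and 618 ± 97.6 in control cells and held 9.92% of the control reads. The strongest site of ZNF385B, at chr2:180585808-180586816, had no listed peak in T7-hnRNPA1 cells and 232 ± 52.4 normalised reads in control cells.

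Leaving out the strongest site of every gene left 50 members with reads in all 6 libraries, of which 19 rose and 9 fell, with a median log2 change of 0.32 against 0.03 over all genes. The share of all genes called in that fit is not given here, so the counts describe the members only. ZNF483 (3.25), ZNF445 (1.23), ZNF695 (1.40), ZNF517 (1.45) and ZNF106 (0.80) still passed upwards. ZNF207 (-2.98), ZNF736 (-3.01), ZNF385B (-1.93), ZNF800 (-2.14), ZNF326 (-2.10) and ZNF343 (-2.24) still passed downwards. ZNF337 turned, at -1.16 without its 81 nt site (limma, adjusted p = 0.12), so its rise rests on that site. ZNF638 stayed below 0 at -0.35 without passing (adjusted p = 0.14). ZNF394, ZNF707, ZNF713, ZNF620, ZNF341, ZNF354B and ZNF703 had too few reads elsewhere to be tested.

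**Figure D3:**
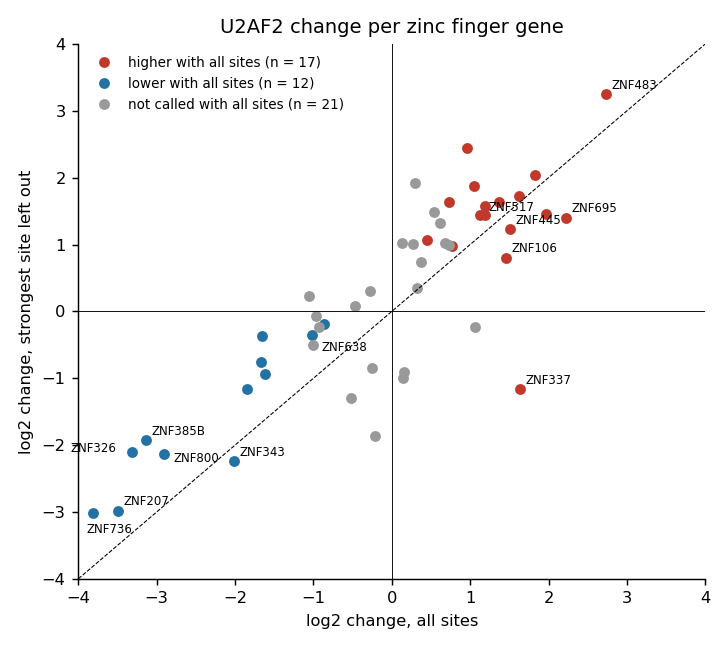
U2AF2 log2 change of T7-hnRNPA1 over control cells for 50 zinc finger genes, with all sites (horizontal axis) and with the strongest site of each gene left out (vertical axis); colours give the call with all sites and the dashed line marks equal values. Most genes keep their side of 0, and ZNF337 moves to -1.16.

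The strongest U2AF2 site of a risen member could also carry peaks of the other proteins, at shares near those of all risen genes. It had a peak in at least 1 hnRNPA1 library from T7-hnRNPA1 cells in 13 of 32 members and from control cells in 30 of 32. SRSF1 peaks lay there in 29 of 32 members in T7-hnRNPA1 cells and in 20 of 32 in control cells. In the 18 fallen members the strongest site had an hnRNPA1 peak in 5 in T7-hnRNPA1 cells and in 9 in control cells, and an SRSF1 peak in 4 and 4. Over all genes tested, the hnRNPA1 shares were 41.5% and 96.0% for T7-hnRNPA1 and control cells in risen genes, and 31.1% and 52.9% in fallen genes. The SRSF1 shares over all genes were 84.4% and 67.1% in risen genes and 39.4% and 32.0% in fallen genes, against 22.2% and 22.2% of the fallen members. Deeper libraries list more peaks, and the part of depth in these counts was not tested.

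In all, 26 sites in 21 members were listed in 13 or more of the 16 libraries. They were 0.576% of the members' sites, near the 0.624% of sites over all genes. All 16 libraries listed 5 of the members' 4515 sites, beside 400 of 414055 sites over all genes. The 5 lie in ZNF106, ZNF337, ZNF394, ZNF707 and ZNF862. Values across proteins are given in RPM, the reads at a site with each library scaled to 1000000 reads in peaks. The ZNF337 site had 931, 922 and 719 RPM for U2AF2 in T7-hnRNPA1 cells and 137, 134 and 112 in control cells. For hnRNPA1 it had 30.9 and 50.4 in T7-hnRNPA1 cells and 137 and 134 in control cells. SRSF1 gave 319.5, 231 and 284 in T7-hnRNPA1 cells and 311, 184 and 245 in control cells, groups that overlapped. The U2AF2 and hnRNPA1 values at the site thus moved in opposite directions, in 3 and 2 libraries per group.

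The ZNF106, ZNF394 and ZNF707 sites had the same order. In T7-hnRNPA1 cells their hnRNPA1 values rest on few reads, beside a minimum of 6 for a peak. These were 7 and 13 reads in ZNF106, 8 and 7 in ZNF394 and 9 and 9 in ZNF707. At the ZNF394 site (chr7:99090884-99090996) U2AF2 gave 333, 369 and 298 RPM in T7-hnRNPA1 cells and 34.2, 44.7 and 38.9 in control cells, and hnRNPA1 gave 14.6 and 12.2 in T7-hnRNPA1 cells and 46.4 and 53.8 in control cells. ZNF789, a neighbouring member read from the other strand, has a site at chr7:99090888-99091009 found in 14 libraries, so both strands carry peaks at this place. Of the 26 widespread sites 7 had a peak on the other strand in at least 1 library. At the ZNF862 site U2AF2 gave 14.4, 18.1 and 16.1 RPM in T7-hnRNPA1 cells and 17.1, 24.3 and 13.8 in control cells, which overlap, while hnRNPA1 gave 23.7 and 13.9 in T7-hnRNPA1 cells and 10.8 and 11.6 in control cells. Divided by size factors instead, the U2AF2 reads at this site were 16.5, 21.2 and 19.3 in T7-hnRNPA1 cells and 34.6, 50.2 and 27.1 in control cells, which do not overlap. Over the whole ZNF862 gene, normalised U2AF2 reads fell (log2 change -1.26 ± 0.35, limma, adjusted p = 0.015).

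**Figure D4:**
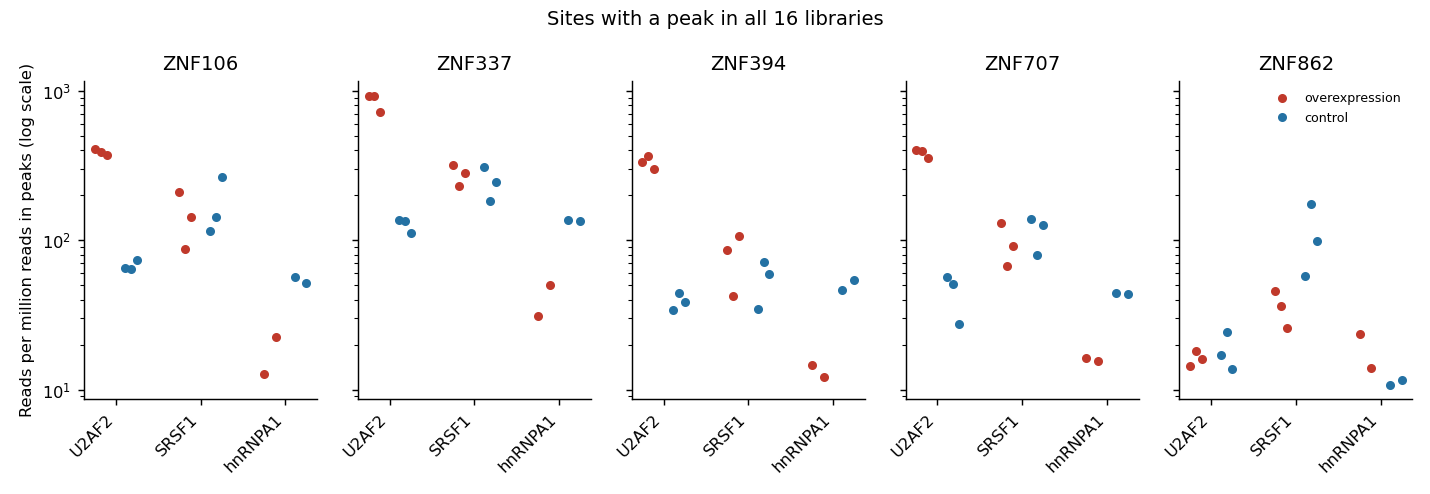
RPM, relative to all reads in peaks of the library (vertical log axis), at the 5 zinc finger sites with a peak in all 16 libraries, for U2AF2, SRSF1 and hnRNPA1, with each library a point and T7-hnRNPA1 cells to the left of control cells. At 4 of the sites U2AF2 is higher and hnRNPA1 lower in T7-hnRNPA1 cells, while ZNF862 shows 14.4 to 18.1 against 13.8 to 24.3 for U2AF2 on this scale. The hnRNPA1 points of ZNF106, ZNF394 and ZNF707 in T7-hnRNPA1 cells rest on 7 to 13 reads each.

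In hnRNPA1 itself, 82 members had a peak in all 4 libraries, and 5 rose and 5 fell. Over all 5738 genes tested, 9.50% rose and 8.33% fell, against 6.10% and 6.10% of the members. The median log2 change was 0.03 over members and 0.01 over all genes. With the depth-matched minimum 41 members could be tested, of which 5 rose and 11 fell, 26.8% downwards against 14.7% of all genes, with a median of -0.51 against -0.02. With total-reads scaling 4 rose and 7 fell. The upward share of all genes with the depth-matched minimum, and both shares with total-reads scaling, are not given here. Those counts describe the members only. Leaving out 1 library leaves an arm of 1, which is assumed to vary like the other group, and the count was then 6 without control replicate 2, 18 without T7-hnRNPA1 replicate 1 and 20 without T7-hnRNPA1 replicate 2.

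The members with fewer hnRNPA1 reads were ZNF106, ZNF394, ZNF337, ZNF385B and ZNF800. ZNF106 had 36.1 and 29.5 normalised reads in T7-hnRNPA1 cells, against 122 and 128 in control cells (log2 change -1.91 ± 0.38, limma, adjusted p = 0.023). ZNF394 had 19.2 and 15.9 in T7-hnRNPA1 cells and 62.5 and 69.5 in control cells (-1.86 ± 0.42, adjusted p = 0.030). Its T7-hnRNPA1 values rest on 8 and 7 reads before normalisation, near the minimum of 6 for a peak. ZNF337 had 132 and 163 in T7-hnRNPA1 cells and 425 and 395 in control cells (-1.47 ± 0.23, adjusted p = 0.015). These 3 are genes whose U2AF2 reads rose. ZNF385B and ZNF800 fell in both proteins. ZNF800 had 224 and 247 hnRNPA1 reads in T7-hnRNPA1 cells and 452 and 477 in control cells (-0.98 ± 0.20, adjusted p = 0.025), and ZNF385B averaged 78.8 ± 28.0 in T7-hnRNPA1 cells and 212 ± 24.9 in control cells (SD, n = 2 each). In fits without 1 library, which leave 1 library in an arm, ZNF106, ZNF394, ZNF385B and ZNF800 did not pass without either control library.

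More hnRNPA1 reads were found in ZNF189, ZNF138, ZNF503, ZNF638 and ZNF609. ZNF189 and ZNF138 encode KRAB proteins, ZNF503 a corepressor related to ZNF703, and ZNF609 is known as the source of an abundant circular RNA. ZNF638 had 2170 and 2265 normalised reads in T7-hnRNPA1 cells, against 1151 and 1088 in control cells (log2 change 0.99 ± 0.12, limma, adjusted p = 0.011). ZNF609 had 303 and 306 in T7-hnRNPA1 cells and 141 and 173 in control cells (0.96 ± 0.24, adjusted p = 0.038). The other 3 were low in control cells, where ZNF189 had 12.3 and 28.1, ZNF138 had 23.9 and 10.1 and ZNF503 had 7.57 and 8.28, while T7-hnRNPA1 cells gave 96.2 and 99.9, 103 and 61.3, and 38.5 and 31.8 for the same genes. ZNF207 had the second highest hnRNPA1 total, with 1768 and 1695 in T7-hnRNPA1 cells and 1427 and 1626 in control cells. Its groups did not overlap, but the change of 0.18 ± 0.13 did not pass (adjusted p = 0.33). ZNF644 (adjusted p = 0.28) and ZNF292 (adjusted p = 0.069) did not pass either, at 579 ± 138 and 580 ± 23.8 in T7-hnRNPA1 cells and 449 ± 20.9 and 393 ± 32.8 in control cells (SD, n = 2 each).

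A further 50 members had hnRNPA1 peaks in both control libraries and in neither T7-hnRNPA1 library, where depth was lower, and 1 member showed the reverse. The 50 are 23.04% of the members, beside 20.1% of all 19362 genes. The highest of the 50 was ZNF273, with 151 and 146 normalised reads in control cells and no listed peak in T7-hnRNPA1 cells. ZNF662 had 65.7 and 69.9, ZNF620 37.8 and 36.8 and ZNF618 23.5 and 46.5 in control cells, again with no listed peak in T7-hnRNPA1 cells. The reverse case was ZNF679, with 36.1 and 59.0 in T7-hnRNPA1 cells and no peak in control cells. Its peaks span 42 nt at chr7:63570705-63570746.

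The difference between the U2AF2 and hnRNPA1 responses was tested in 44 members with peaks in all 10 libraries. In 14 the U2AF2 change was above the hnRNPA1 change, in 9 it was below, and 21 did not pass. Over all 4393 genes tested, 20.0% differed upwards and 30.5% downwards, against 31.8% and 20.5% of the members. The largest differences upwards were in ZNF483 (4.82 ± 0.78, limma, adjusted p = 0.00041), ZNF394 (4.10 ± 0.39, 1.1e-05), ZNF707 (3.63 ± 0.50, 0.00014), ZNF106 (3.36 ± 0.30, 6.6e-06) and ZNF367 (3.31 ± 0.63, 0.0012), each with its adjusted p. All 5 had a U2AF2 change above 0 and an hnRNPA1 change below 0. Of the 5, only ZNF394 and ZNF106 had a fall called in hnRNPA1 by itself. The largest downwards were in ZNF207 (-3.68 ± 0.20, 3.8e-07), ZNF326 (-2.86 ± 0.47, 0.00048), ZNF354B (-2.43 ± 0.77, 0.021), ZNF638 (-2.0 ± 0.22, 2.9e-05) and ZNF407 (-1.94 ± 0.35, 0.00093). ZNF638 alone of the 44 had a fall called in U2AF2 and a rise called in hnRNPA1. With the depth-matched minimum, 13 of 25 members differed upwards and 5 downwards, and with total-reads scaling 21 of 44 upwards and 4 downwards. The shares of all genes by direction in these settings are not given here, so these counts describe the members only.

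**Figure D5:**
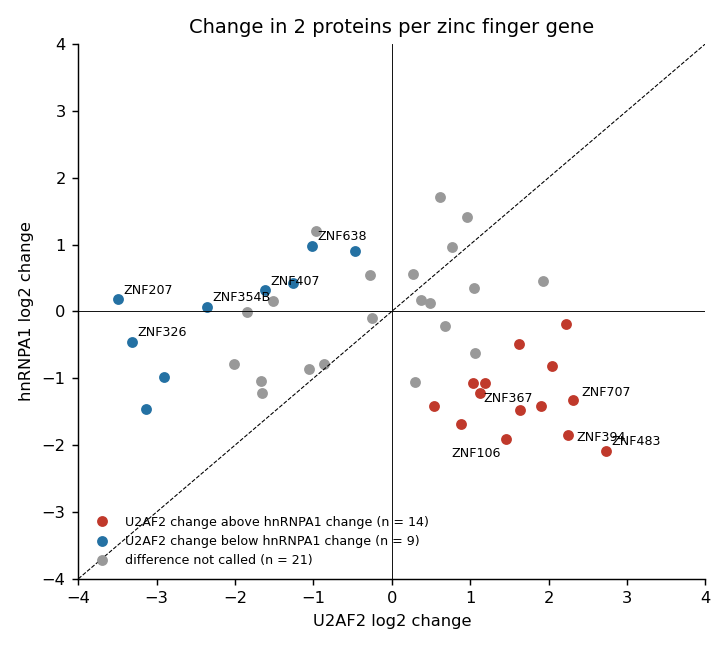
Log2 change of T7-hnRNPA1 over control cells for U2AF2 (horizontal axis) and hnRNPA1 (vertical axis) in the 44 zinc finger genes with peaks in all 10 libraries, coloured by the test of the difference, with a dashed line at equal changes. In 17 members U2AF2 is above 0 and hnRNPA1 below 0, in 9 the reverse holds, 8 are above 0 in both and 10 are below 0 in both.

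SRSF1 reads could be tested in 19 members. ZNF292 fell and no member rose, while over all 1845 genes tested 4.17% rose and 2.60% fell, 6.78% in either direction. At an unadjusted p under 0.05, none of the 19 was higher and 3 (15.8%) were lower, beside 11.5% higher and 11.4% lower over all genes. With total-reads scaling 2 fell and none rose, and with peaks required in 50% of libraries 4 of 62 rose and none fell. ZNF292, a large transcription factor, had 6.71, 7.83 and 5.37 normalised reads in T7-hnRNPA1 cells, against 29.6, 13.6 and 30.9 in control cells (log2 change -1.68 ± 0.42, limma, adjusted p = 0.038). The T7-hnRNPA1 values lie near the minimum of 6 reads for a peak, and the gene's strongest SRSF1 site had no listed peak in those cells. The call was lost without any 1 of 5 of the 6 libraries, SRSF1 control replicate 2 being the exception, with adjusted p between 0.086 and 0.14. ZNF207 had 31.3, 92.7 and 59.1 in T7-hnRNPA1 cells and 156, 120 and 217 in control cells, groups that did not overlap, at -1.50 ± 0.43 (adjusted p = 0.061). ZNF638, ZNF337, ZNF106 and ZNF445, the other members with most SRSF1 reads, had adjusted p of 0.29 to 0.97. Of the 217 members, 104 had no SRSF1 peak of at least 6 reads, and 4 (ZNF277, ZNF655, ZNF512 and ZNF124) had peaks in the 3 T7-hnRNPA1 libraries and in no control library, at 6.43 to 16.4 normalised reads on average. The 4 are 1.84% of the members, beside 1.42% of all genes.

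Between U2AF2 and SRSF1, 17 members could be compared over 12 libraries. In 5 the U2AF2 change was above the SRSF1 change and in 3 it was below, while over all 1650 genes tested 24.1% differed upwards and 28.2% downwards, 52.2% in either direction. ZNF707 (2.37 ± 0.48, limma, adjusted p = 0.0013), ZNF292 (1.94 ± 0.49, 0.0056), ZNF394 (1.64 ± 0.53, 0.019), ZNF337 (1.61 ± 0.32, 0.0011) and ZNF106 (1.60 ± 0.53, 0.023) differed upwards. The ZNF292 difference rests on its SRSF1 fall, which lies near the peak minimum, as its U2AF2 change was 0.27. The downward calls, in ZNF638 (-2.07 ± 0.64, 0.016), ZNF207 (-1.99 ± 0.47, 0.0040) and ZNF512B (-1.60 ± 0.55, 0.027), were not made with total-reads scaling (13 upwards, 0 downwards) or quantile normalisation (4 upwards, 0 downwards).

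Zinc finger genes stand in clusters, and 114 of the 217 members fell into 26 blocks in which peak spans lay within 500 kb of the next. At chr1:247131263-247492868 the 3 members tested (ZNF695, ZNF669 and ZNF124) all rose, with a median log2 change of 1.76. On chromosome 3, ZNF620 and ZNF621 rose and ZNF619 (1.07 ± 0.44, limma, adjusted p = 0.068) did not pass. At chr4:126160-491947, ZNF876P and ZNF721 rose and ZNF141 did not pass. The block at chr7:63570705-64865893 held both directions, with ZNF736 lower and ZNF273 higher. Of 11 blocks with at least 2 members tested, 3 held calls in both directions. ZNF286A and ZNF286B, near-identical copies on chromosome 17, rose by 1.18 ± 0.42 and 1.12 ± 0.19, and their reads may not be assigned apart.

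Pseudogenes of the family carried U2AF2 reads too. ZNF876P rose (1.34 ± 0.26, limma, adjusted p = 0.0033), with 622 reads before normalisation over the 3 T7-hnRNPA1 libraries and 47 over the 3 control libraries. ZNF767P did not pass (-0.97 ± 0.88, adjusted p = 0.37), with 393 reads in T7-hnRNPA1 cells and 185 in control cells. ZNF271P had 292 reads, all in T7-hnRNPA1 replicate 3, and no listed peak in control cells. The peaks of that library may have been called with other settings, so this value is not read as a change. The other 7 had no peak in at least 1 U2AF2 library and were not tested.

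The closest set, zinc finger genes on chromosome 19, had 38 of 70 members higher and 7 lower in U2AF2, with a median log2 change of 1.10, beside 32 of 78 higher, 18 lower and 0.49 for the genes on other autosomes. The difference between the sets was not tested. Over all genes tested in U2AF2, 30.2% rose and 31.6% fell, which is the background for the counts of each set here. Other C2H2 families (ZBTB, ZSCAN, ZFP, KLF, PRDM and related genes) had 7 of 28 higher and 8 lower, with a median of -0.02. ZSCAN29 (1.81 ± 0.32, limma), ZKSCAN1 (1.47 ± 0.19) and ZBTB3 (1.35 ± 0.26) rose most, and ZBTB21 (-3.73 ± 0.38) and ZIC2 (-2.89 ± 0.28) were among those that fell. Of 31 genes of the corepressor machinery that KRAB proteins use, 20 were tested in U2AF2, of which 3 rose and 10 fell, with a median of -0.81. RBBP7 (-3.15 ± 0.13) and CHD4 (-2.36 ± 0.28), subunits of the NuRD remodelling complex, and the methyltransferase SUV39H2 (-2.64 ± 0.18) fell most. CBX5 (1.23 ± 0.16), which encodes HP1 alpha, MORC3 (1.09 ± 0.37) and MPHOSPH8 (0.96 ± 0.29), a subunit of the HUSH silencing complex, were the 3 that rose. In hnRNPA1, 1 of 25 corepressor genes rose (ATRX, 1.52 ± 0.27) and 1 fell (CBX5, -1.02 ± 0.28), beside 9.50% and 8.33% of all genes. In SRSF1 limma called none of 14. At an unadjusted p under 0.05, 0 of the 14 were higher and 4 lower, beside 11.5% and 11.4% of all genes.

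The authors' deposited table of skipped exons from polyadenylated RNA, with 2 libraries per condition, lists 251 events, and 2 of them overlap the peak span of a zinc finger member. In the authors' deposited table the event at chr16:3333487-3341459, over ZNF263, has inclusion of 0.36 and 0.26 in T7-hnRNPA1 cells and 0.55 and 0.71 in control cells. The event at chr7:99158156-99162328, over ZNF655, has inclusion of 0.26 and 0.32 in T7-hnRNPA1 cells and 0.74 and 0.15 in control cells in the authors' deposited table. The groups do not overlap for ZNF263 and overlap for ZNF655. The largest Bayes factor among the 4 pairs of libraries is 5.09 for ZNF263 and 11.5 for ZNF655 in the authors' deposited table, and neither event passes the authors' thresholds in all 4 pairs. ZNF655 did not pass in U2AF2 (log2 change -0.25 ± 0.31, limma, adjusted p = 0.51), and ZNF263 was not tested there.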

How the data were processed

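Mapping used TopHat on hg19 after a filter written rptfilt, and CLIPper called the peaks of each library separately, per the file headers. Each peak name deposited by the authors joins a gene ID, a peak number and a read count. The deposited skipped-exon table, from MISO per the file headers, holds exon inclusion (a fraction) and a Bayes factor (a ratio) for each pair of libraries. Of 19362 gene IDs, 17814 (92.0%) matched the name table. Positions are the authors' hg19 intervals, 1-based. Gene type and length are from GENCODE 29. The exon or intron of a site was not annotated, and no sequence is printed.

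Peaks of at least 6 reads were kept, since U2AF2 overexpression replicate 3 lists peaks from 3 reads. The 8 members with no peak of at least 6 reads belong to the set only through smaller peaks of that library. That library also gives gene IDs with version numbers, so its peaks may have been called with other settings. Of its zinc finger peaks of at least 6 reads, 9.41% were shared with another gene, against 4.00% and 5.14% in overexpression replicates 1 and 2. The read minimum does not remove that difference. Reads per gene were divided by median-of-ratios size factors within each protein. The log2 of these values plus 1 was fitted with limma 3.58.1 in R 4.3.3 (eBayes with a trend, two-sided, Benjamini-Hochberg over all genes tested, threshold 0.05), and differences between proteins as an interaction. Fits were tested on simulated data. The depth-matched minimum was 6 reads for the shallowest library of a protein and up to 33 for deeper ones. Identical peaks made up at most 0.0693% of a replicate pair, so no library repeated another of its group, and each counted as 1 sample. That check cannot show whether replicates came from separate cultures.

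Named members were, per protein, the 8 largest called rises and falls with separate groups, the 5 with most reads, the 5 highest of those with peaks in every library of 1 condition only, those with a skipped exon, and the 5 largest called differences in each direction. ZNF33B, ZNF662, ZNF669, the neighbouring and paralogous genes and the pseudogenes were chosen after their values were seen. The members and lists were chosen with earlier results of these data known. Alternatives are given in the closing section. The values of 1 gene of the other C2H2 families are not reported here.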

Additional observations from a re-analysis of the deposited data

Results flagged for a closer look

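The tests of a difference between responses to T7-hnRNPA1 brought out these members, given as the U2AF2 log2 change minus that of the other protein. Against hnRNPA1, over 10 libraries, the differences were 4.82 in ZNF483, 4.10 in ZNF394, 3.63 in ZNF707, 3.36 in ZNF106 and 3.31 in ZNF367. Below 0 they were -3.68 in ZNF207, -2.86 in ZNF326, -2.43 in ZNF354B, -2.0 in ZNF638 and -1.94 in ZNF407. Against SRSF1, over 12 libraries, they were 2.37 in ZNF707, 1.94 in ZNF292, 1.64 in ZNF394, 1.61 in ZNF337 and 1.60 in ZNF106, and below 0 they were -2.07 in ZNF638, -1.99 in ZNF207 and -1.60 in ZNF512B. The deeper U2AF2 libraries are from T7-hnRNPA1 cells and the deeper hnRNPA1 libraries from control cells, so depth moves in opposite directions in the 2 proteins. With the depth-matched minimum, the count was 18 of 25 members tested (72.0%), beside 71.1% of all genes tested in that setting. The part of depth in these differences was not tested.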

How the results depend on the processing

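The count of members changed in U2AF2 was 50, and was 33 with the depth-matched minimum, 23 with numbers of peaks, 28 without the strongest site of each gene (chosen after seeing the data) and 37 to 53 without 1 replicate. In hnRNPA1 it was 10, and was 61 with peaks in at least 50% of libraries, 59 with no filter, 16 with the depth-matched minimum, 1 with numbers of peaks and 6 to 20 without 1 replicate. In SRSF1 it was 1, and was 4 with peaks in 50% of libraries, 2 with total reads, 0 with no filter, with the depth-matched minimum, with numbers of peaks and without the strongest site, and 0 to 2 without 1 replicate. The count that differed between U2AF2 and SRSF1 was 8, and was 15, 39, 2, 13, 4 and 3 with the 50% filter, no filter, numbers of peaks, total reads, quantile normalisation and the strongest site left out, and 6 to 11 without 1 replicate. Between U2AF2 and hnRNPA1 it was 23, and was 63 with the 50% filter, 75 with no filter, 14 with peaks under 1 gene only, 5 with numbers of peaks, 7 without the strongest site and 19 to 26 without 1 replicate. Signs turned with numbers of peaks for ZNF638 (0.94 in U2AF2, 0.0041 against SRSF1, 0.19 against hnRNPA1), ZNF337 (-1.12 in U2AF2, -0.66 against SRSF1) and ZNF445 (-0.18), for ZNF638 with quantile normalisation (0.074) and for ZNF337 in U2AF2 without its strongest site (-1.16). With the depth-matched minimum the mean share of reads was 1.40% in T7-hnRNPA1 cells and 0.841% in control cells for U2AF2, 0.311% and 0.472% for SRSF1, and 0.908% and 1.01% for hnRNPA1. Members with a peak then averaged 94.7 in T7-hnRNPA1 cells and 100.3 in control cells for U2AF2, 23.3 and 33.0 for SRSF1 and 93.5 and 73.5 for hnRNPA1, and with all deposited peaks 179 in T7-hnRNPA1 cells for U2AF2. Past both thresholds in all 4 pairs of libraries, 0 skipped exons remained. With the replicate number as a block the counts were 48, 1, 13, 8 and 24, and same-numbered libraries did not deviate together. Apart from the filters and sites named, the cause of these shifts was not tested. Where no share over all genes stands beside a count in these settings, here or above, the count describes the members only. Depth limits most the SRSF1 libraries, where 19 of 217 members could be tested.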
